A study of Rattus norvegicus and Mus musculus with 25 samples.

Results

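Day 1 mouse cardiomyocytes with both copies of Vldlr floxed were compared with cardiomyocytes that had a single floxed copy, and the cells of both groups carried the Myh6-Cre transgene. The comparison rests on 6 of the 25 libraries of the series. They are the 3 libraries labelled Myh6-Cre;Vldlr f/f, called homozygous below, and the 3 labelled Myh6-Cre;Vldlr f/+, called heterozygous below. The strain is C57BL/6 and the tissue is the heart in each of them. Cre is under the promoter of Myh6, the gene of the alpha myosin heavy chain, so recombination is directed to heart muscle cells and other cells of the preparation keep their floxed alleles. Because the heterozygous libraries carry Cre and a floxed allele as well, the genotypes differ by their labels only in the number of floxed copies. The series also holds 3 mouse Vldlr f/f libraries without Cre, called no-Cre below and shown for reference, and cultures of rat neonatal cardiomyocytes. The floxed exons are not given in the sources used here, nor are the number of animals behind a library and the way the mouse cells were isolated. Of the genes in the mouse table, 14461 had at least 1 CPM (values scaled to sum to 1000000 in each library) in at least 3 of the 6 Cre libraries and were tested.

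Vldlr encodes the very low density lipoprotein receptor, a lipoprotein receptor that is abundant in heart muscle. It takes up triglyceride-rich lipoproteins together with lipoprotein lipase, and in the brain it binds the secreted protein Reelin and signals through the adaptor Dab1 to guide migrating neurons. Both Reelin, encoded by Reln, and thrombospondin-1, encoded by Thbs1, appear in the series title as regulators of cardiomyocyte division that need Vldlr. Cells with both copies floxed against cells with 1 copy floxed therefore address what is altered in cells that go from partial to full targeting of the receptor.

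The libraries differed from each other in ways that cut across genotype. On principal components of log2(CPM + 1), the first component took 35.9% of the variance and set homozygous replicate 1 (-33.7) and heterozygous replicate 1 (-55.3) apart from homozygous replicates 2 and 3 (25 and 32.9) and heterozygous replicate 2 (27.7), with heterozygous replicate 3 between them at -8.67. The second component took 17.5% and set replicate 3 of both genotypes apart, at 36.8 in the homozygous and 44.1 in the heterozygous library, from the other 4 Cre libraries at -15.2 to -6.93. Nppb, the natriuretic peptide B gene, followed the replicate number in the Cre libraries. It was 109, 354 and 1967 CPM in homozygous replicates 1 to 3 and 64.4, 222 and 1958 CPM in heterozygous replicates 1 to 3. Nnt, the mitochondrial transhydrogenase gene, was 287, 48.8 and 15.3 CPM in the homozygous and 191, 11.2 and 6.89 CPM in the heterozygous libraries. Both genes were chosen after their values were seen, and both differed more between replicate numbers than between the Cre genotypes. No-Cre replicates 1 to 3 did not share these orders, at 94.8, 318 and 55.5 CPM for Nppb and 16.4, 418.5 and 78.2 CPM for Nnt.

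**Figure D1:**
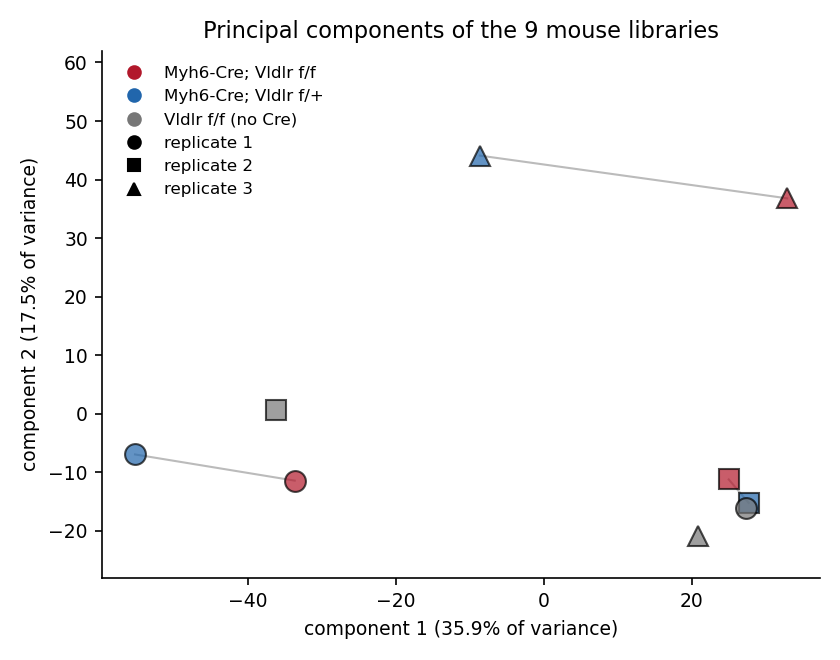
Principal components of log2(CPM + 1) for the 9 mouse libraries, each point a library shaped by replicate number and coloured by genotype, grey lines joining same-numbered Cre libraries, with component 1 (35.9% of variance) across and component 2 (17.5%) upwards. The genotypes do not separate on either axis, while replicate 3 of both Cre genotypes lies high on component 2, at 36.8 and 44.1.

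After the group means were removed, same-numbered homozygous and heterozygous libraries deviated together. The correlations across genes were 0.46, 0.46 and 0.34 for replicates 1, 2 and 3, and each library correlated best with the one of its own number. Correlations with no-Cre libraries of another number reached 0.45, so the number is not shown to mark pairs. Some results are therefore also given with the replicate number as a block. These are the counts over all tested genes, those of the most one-sided lists and the intervals of some genes. No label says that a number marks a shared litter or day, or that replicates come from separate animals, so a p-value here covers spread among libraries that may be technical in origin. Xist, which is expressed from the inactive X chromosome, was 0.255 CPM in homozygous replicate 2 and 253 to 1129 CPM in the other 5 Cre libraries. Ddx3y, a Y-linked gene, was 28.9 CPM in homozygous replicate 2 and at most 0.0605 CPM in the other 5. By these genes homozygous replicate 2 was male and the other 5 Cre libraries were female, so sex was not balanced between the genotypes. The mitochondrially encoded genes took 20.2%, 24.7% and 16% of the homozygous libraries and 21.4%, 17.9% and 16.7% of the heterozygous ones.

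Markers of heart muscle were abundant in all 6 libraries. The 12 genes listed for it summed to 5.33% to 6.18% of all CPM in the homozygous and 5.87% to 6.32% in the heterozygous libraries. Other cell types were present at low levels in both groups. Fibroblast markers summed to 3620 to 4040 CPM in the homozygous and 3610 to 5850 CPM in the heterozygous libraries, smooth muscle and pericyte markers to 1270 to 1490 and 1510 to 1860 CPM, and endothelial markers to 1440 to 1890 and 1540 to 1860 CPM. Erythroid markers summed to 3090 to 6300 and 4610 to 6710 CPM, with the embryonic globin Hbb-bh1 at 0. Macrophage markers summed to 164 to 357 and 216 to 263 CPM, and endocardial markers to 306 to 528 and 361 to 450 CPM. Neuronal, other leukocyte, and thymus, lung and liver markers summed to at most 71.5, 42.1 and 17.9 CPM, each in heterozygous replicate 1. In bulk RNA, fewer cells of a type and less RNA per cell cannot be told apart.

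Vldlr itself was lower in the homozygous libraries, but the difference did not pass the test. The gene (chr19:27216484-27254231, plus strand, GRCm38) was 71.3, 78.9 and 85.1 CPM in the homozygous libraries and 98.4, 112 and 100.2 CPM in the heterozygous libraries. It was 195, 108.5 and 164 CPM in the no-Cre libraries. Every homozygous library was below every heterozygous library, and every heterozygous library was below no-Cre replicates 1 and 3. The homozygous mean of 78.5 ± 6.90 CPM (SD, n = 3) was 75.8% of the heterozygous mean of 103.5 ± 7.32 CPM (SD, n = 3). Relative to the no-Cre mean of 156 ± 43.8 CPM, the heterozygous mean was 66.4% and the homozygous mean 50.3%.

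The log2 difference in Vldlr between the Cre genotypes was -0.40 ± 0.23 (SE, on log2(CPM + 1), 95% interval -0.91 to 0.12), with a limma adjusted p = 1. With the replicate block the difference had the same size, a 95% interval of -0.78 to -0.01 and a limma adjusted p = 0.976. These intervals, and those of the genes below, are for each gene alone and are not adjusted for the number of genes. The two-sided exact permutation test over the 20 splits of 3 against 3 libraries gave p = 0.1, the smallest this design allows. Values per gene can include transcript outside the floxed part and transcript from cells without Cre, so the remaining Vldlr signal does not measure how complete recombination was.

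**Figure D2:**
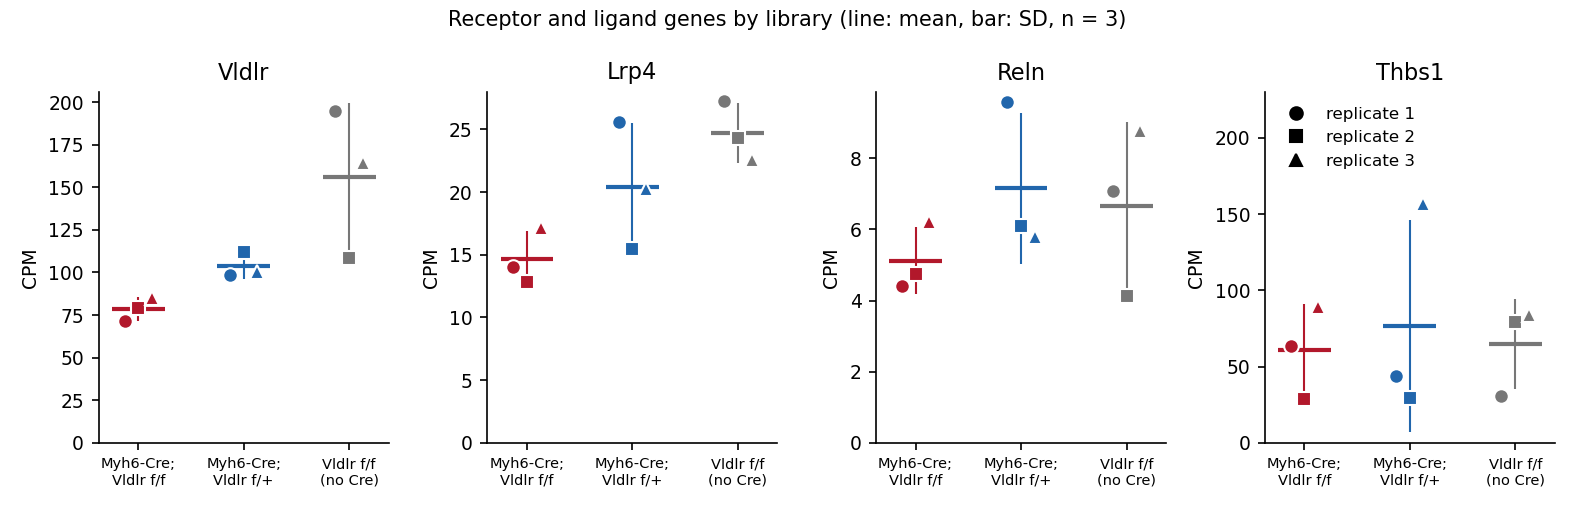
Level in CPM of Vldlr and genes of its pathway in each of the 9 mouse libraries, with the shape of a point giving the replicate number, the mean as a line and the SD as a bar for each genotype (n = 3). The 3 homozygous Vldlr values (71.3 to 85.1 CPM) lie below the 3 heterozygous ones (98.4 to 112 CPM), while the genotypes overlap for Reln, Thbs1 and Lrp4.

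No gene passed the test in either direction. Of 14461 genes, 0 (0%) were higher and 0 (0%) were lower in the homozygous libraries at a limma adjusted p under 0.05, and the smallest adjusted p was 1. At an unadjusted limma p under 0.05 there were 131 genes (0.906%), of which 31 (0.214%) were higher and 100 (0.692%) lower, fewer than the 723 that an even spread of p-values would give. With the replicate block on the 6 Cre libraries the number at an unadjusted p under 0.05 was 531 (3.67%), of which 122 (0.844%) were higher and 409 (2.83%) lower, and again no gene was called, the smallest adjusted p being 0.434. The edgeR quasi-likelihood test on whole units recovered from the CPM called 0 genes and put 120 at an unadjusted p under 0.05. DESeq2 on the same units called 4 genes, Tmem254a and Tmem170b higher and Angptl7 and RP23-282O12.1 lower, and put 183 at an unadjusted p under 0.05.

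**Figure D3:**
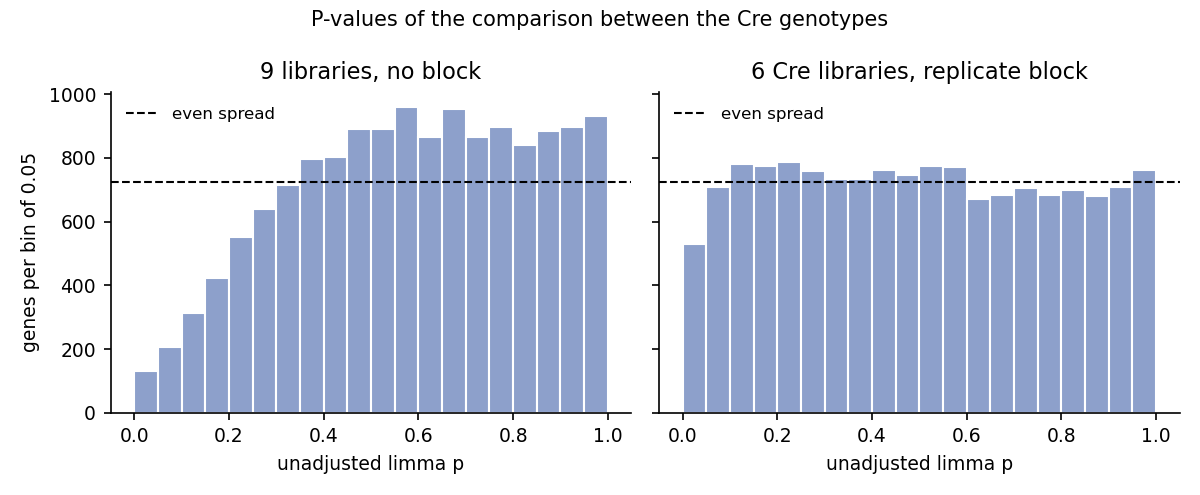
Number of genes in each 0.05-wide bin of the unadjusted limma p, for the fit without a block (left) and with the replicate block (right), with a dashed line at the number an even spread would give (723). The first bin holds 131 genes without the block and 531 with it, both below the line.

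The design resolved only large differences. The 95% interval of the log2 difference reached a median of 0.655 to either side of the estimate, or 0.532 with the block. The 3 homozygous values all lay above the 3 heterozygous values for 98 genes (0.678%) and all below for 255 genes (1.76%). The log2 difference was at least 1 for 69 genes (0.477%) and at most -1 for 97 genes (0.671%). More differences were negative than positive, 60.1% against 39.9%, on CPM as deposited. After TMM scaling the split was 50.6% negative and 49.4% positive, and after median-of-ratios scaling 49.8% and 50.2%. Homozygous replicate 2, the library with the largest mitochondrial share, had a TMM factor of 0.87, and without it 47.5% of differences were negative.

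The ligands named in the series title did not differ beyond their spread. Reln (chr5:21884454-22344702, minus strand) was at a low level, with 4.42, 4.76 and 6.20 CPM in the homozygous and 9.59, 6.10 and 5.78 CPM in the heterozygous libraries. The highest value belonged to heterozygous replicate 1 and the other 5 libraries lay close together, with a log2 difference of -0.39 ± 0.31 (SE, 95% interval -1.08 to 0.29). Thbs1 (chr2:118111876-118127133, plus strand) was 63.4, 29 and 89.1 CPM in the homozygous and 43.8, 29.2 and 156 CPM in the heterozygous libraries. Here the replicate numbers ordered both groups alike from replicate 2 at the bottom to replicate 3 at the top, and the log2 difference was -0.10 ± 0.63 (SE, 95% interval -1.50 to 1.31). Its sign turned to 0.35 without homozygous replicate 2 and to 0.60 without heterozygous replicate 3.

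Of the receptors related to Vldlr, Lrp8, the other Reelin receptor, was 2.03, 0.625 and 0.646 CPM in the homozygous and 0.757, 0.727 and 2.67 CPM in the heterozygous libraries, too low to be tested. Dab1, the adaptor of the Reelin pathway, was at most 0.363 CPM in the 6 libraries. Lrp4, a related receptor that acts at the neuromuscular junction, was 14, 12.8 and 17.2 CPM in the homozygous and 25.6, 15.4 and 20.3 CPM in the heterozygous libraries. It was lower in each of the 3 same-numbered pairs, with a log2 difference of -0.44 ± 0.24 (SE, 95% interval -0.97 to 0.10), and the groups overlapped. Lrp6, the Wnt co-receptor, was likewise lower in each pair, at means of 43.5 and 51.4 CPM.

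Lpl, which encodes lipoprotein lipase, was 921, 1326 and 1937 CPM in the homozygous and 704, 891 and 1752 CPM in the heterozygous libraries. It was higher in each pair but overlapped between the groups, with a log2 difference of 0.37 ± 0.36 (SE, 95% interval -0.43 to 1.17). Apoe, a lipoprotein ligand of the receptor, averaged 270 ± 101 CPM (SD, n = 3) in the homozygous and 226 ± 53.3 CPM in the heterozygous libraries. Rapgef1, the exchange factor downstream of Crk, averaged 65.3 and 45.9 CPM, with the lowest value, 21 CPM, in heterozygous replicate 3. Across the 19 genes listed for the receptor pathway 16 were tested, none was called, 7 had a positive and 9 a negative difference, and the median was -0.00214 beside -0.0568 over all tested genes. It was 0.0482 (9 positive, 7 negative) after TMM scaling, 0.143 (11 and 5) without homozygous replicate 1 and -0.172 (5 and 11) without homozygous replicate 3.

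Myh6, whose promoter drives the Cre, was 19310, 17960 and 14860 CPM in the homozygous and 19340, 19410 and 20460 CPM in the heterozygous libraries. The groups did not overlap, but the log2 difference was -0.19 ± 0.28 (SE, 95% interval -0.81 to 0.42) and homozygous replicate 3 was the lowest of the 6 libraries.

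The genes named next were taken by a fixed rule, the 10 per direction with the smallest unadjusted p among genes whose groups did not overlap. None of them passed the adjusted limma test. Among genes higher in the homozygous libraries, Slc45a4, a solute carrier gene (chr15:73577424-73645762, minus strand), was 38.8, 22 and 17.9 CPM against 4.27, 14.7 and 4.74 CPM. The log2 difference was 1.73 ± 0.42 (SE, 95% interval 0.78 to 2.67), and the no-Cre libraries, at 36.6, 30.4 and 39.1 CPM, were on the side of the homozygous ones. Rbm38, which encodes an RNA-binding protein, was 58.9, 58.4 and 118 CPM against 32.3, 24.5 and 31.5 CPM, a log2 difference of 1.31 ± 0.47 (SE, 95% interval 0.28 to 2.35). The no-Cre libraries spanned both groups for this gene, at 97.9, 25.8 and 29.4 CPM.

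Matr3, a nuclear RNA-binding protein gene, was even across the homozygous libraries, at 219.5, 219 and 230.2 CPM, against 117.5, 169 and 168 CPM in the heterozygous ones. Smad5, which transmits BMP signals, was 48.4, 46.7 and 63 CPM against 42.4, 12.3 and 26.1 CPM. Enah, a regulator of actin filaments, was 112, 92.7 and 113.5 CPM against 28.3, 87.4 and 32.3 CPM. For Enah, and also for Ly6e, heterozygous replicate 2 stood nearer to the homozygous libraries than to the other heterozygous ones. Ly6e, a membrane-anchored surface protein gene, was 57.2, 71.9 and 56.7 CPM against 15.7, 56.6 and 15.7 CPM. Others taken by the rule as higher were Pcdh7, a protocadherin (means 102 and 50.2 CPM), and Raver1, a splicing cofactor (55.1 and 18.2 CPM). Ccpg1, a receptor for autophagy of the endoplasmic reticulum, was taken as well (18.2 and 10.1 CPM).

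Tmem254a had the smallest unadjusted p of all genes and needs its copies beside it. It was 1.75, 4.96 and 8.89 CPM in the homozygous libraries and was listed at 0 in each of the 3 heterozygous ones, with 6.26, 1.23 and 1.64 CPM without Cre. The near-identical neighbour Tmem254b was 9.91, 7.82 and 12.5 CPM against 17, 9.69 and 17.7 CPM, the other way round, and Tmem254c was 14, 12.4 and 22.5 CPM against 20.9, 25.5 and 17.9 CPM. Reads of these copies can be assigned to any of them, so the division between them is uncertain. The log2 difference of Tmem254a was 2.45 ± 0.51 (SE, 95% interval 1.31 to 3.59), and no fold is given against a group listed at 0. Tmem170b and RP23-282O12.1, the other DESeq2 calls, were not in every case separated: Tmem170b was 22.2, 14 and 0.556 CPM against 1.03, 0.569 and 1.21 CPM, so that homozygous replicate 3 was the lowest of the 6. RP23-282O12.1 was 0.0587, 0.179 and 0.12 CPM against 2.81, 1.52 and 2.27 CPM, low in both groups.

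Among genes lower in the homozygous libraries, Angptl7 had the smallest p. Angptl7 (chr4:148495183-148500460, minus strand) encodes a secreted angiopoietin-like protein and was 7.45, 6.90 and 10.3 CPM in the homozygous and 24.4, 14.5 and 21.8 CPM in the heterozygous libraries. The no-Cre libraries, at 7.74, 7.27 and 7.01 CPM, were level with the homozygous ones, so the heterozygous group was the one apart. The homozygous mean was 2.46-fold lower than the heterozygous mean, and the log2 difference was -1.19 ± 0.26 (SE, 95% interval -1.77 to -0.61, limma adjusted p = 1). DESeq2 gave an adjusted p = 0.0332 for the same gene.

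Arrdc3, an adaptor that guides receptor trafficking, showed the reverse arrangement. It was 41.6, 16.2 and 31.4 CPM in the homozygous libraries, 66.9, 62.3 and 60.4 CPM in the heterozygous and 57.2, 60.4 and 54 CPM in the no-Cre libraries, so here the homozygous group was the one apart. Its log2 difference was -1.16 ± 0.30 (SE, 95% interval -1.82 to -0.50). Scai, a suppressor of the MRTF coactivator, was 1.73, 8.10 and 1.83 CPM against 23.3, 10.4 and 16.9 CPM, with 9.96 to 23.1 CPM without Cre. Taf1, the largest subunit of the general factor TFIID, was 10.3, 9.48 and 12.4 CPM against 36.9, 17.7 and 20.5 CPM, with 18.3 to 21 CPM without Cre.

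Hspb6 encodes a small heat shock protein of muscle and was 48.5, 58.6 and 81 CPM against 192, 165.5 and 117 CPM, a log2 difference of -1.32 ± 0.36 (SE, 95% interval -2.13 to -0.51). Its exons overlap those of Lin37 and Proser3, and the sources used here do not say whether counting used strand. Mrto4, a ribosome assembly factor gene, was 12.4, 11.6 and 14.3 CPM against 24.5, 20.7 and 27.1 CPM. Tcf12, a helix-loop-helix transcription factor gene, was 13.2, 23 and 41.2 CPM against 74.2, 43.7 and 61.4 CPM. Others taken by the rule as lower were Zfp579, a zinc finger gene (means 18.9 and 58 CPM), and Bbx, an HMG-box gene (10 and 26.7 CPM). Naa60, a protein acetyltransferase gene, was taken as well (11.4 and 33.1 CPM). Exon overlap with another annotated gene, on either strand, was found for 38 of 98 genes checked. Those named here are Hspb6, Reln, Thbs1, Myh6, Pcdh7, Rbm38, Smad5, Matr3, Ccpg1, Raver1, Naa60, Kif20a, Nusap1, Top2a, Dusp1, Ttn, Myl4, Tbx18, Krt8, Kcnd3, Abcc9, Ltbp2, Nppa, Rapgef1, Gja5, Nr2f1, Nr2f2, Kcnj3, Cpt1b, Etfb, Cryab, Prox1, Foxm1, Fen1 and Chaf1a.

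**Figure D4:**
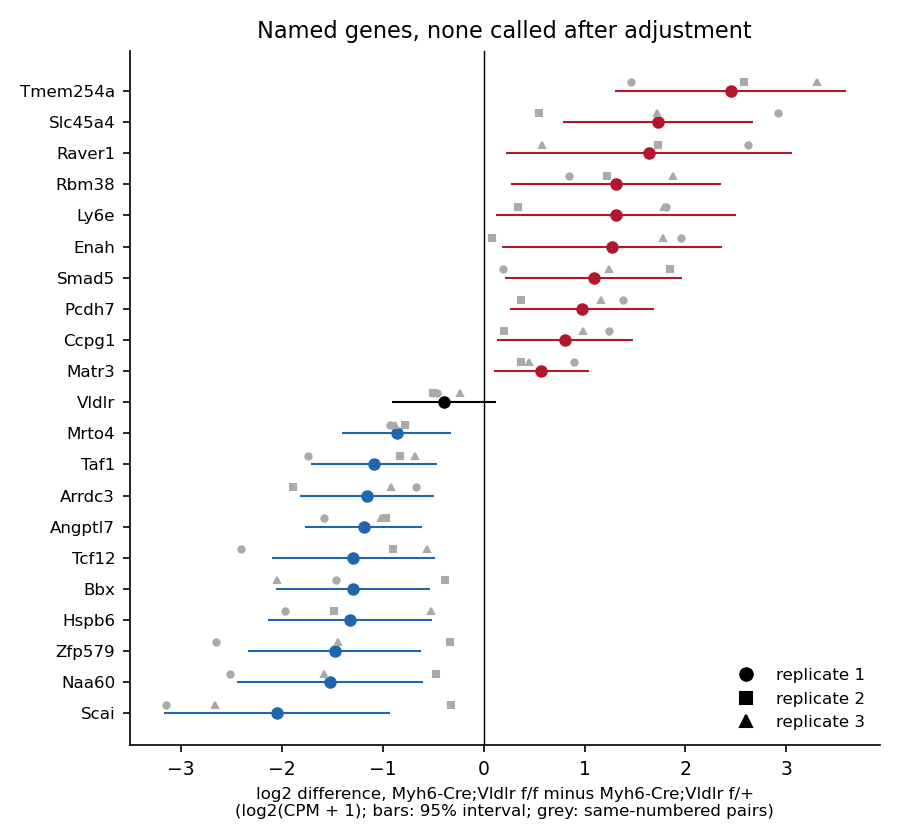
Log2 difference, homozygous minus heterozygous, on log2(CPM + 1) for the genes named by rule, with the 95% limma interval as a bar and the 3 same-numbered pairs as grey marks. The genes other than Vldlr were chosen for a small unadjusted p, so their intervals exclude 0 by that choice (Angptl7, -1.77 to -0.61). None of the genes drawn passed the limma test after adjustment, while DESeq2 called Angptl7 and Tmem254a.

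None of the 42 gene lists held a called gene. Each list below is given by its counts and median, beside a median of -0.0568 and 39.9% positive differences over all tested genes. Of 40 lists with at least 3 tested genes, the median of 30 changed sign when 1 of the 6 Cre libraries was left out, and that of 10 kept its sign. The median over all tested genes moved as well, to -0.093 without homozygous replicate 3 and 0.0129 without homozygous replicate 2. The signs of the lists are taken against 0 and not against that shift. The lists with the most one-sided counts were atrial identity, epicardial and mesothelial markers, mitosis and immediate early genes. At an unadjusted limma p under 0.05, atrial identity had 2 genes without the block and 9 with it. Mitosis and immediate early genes each had 0 and 6, and epicardial and mesothelial markers 0 and 0. Over all tested genes the shares were 0.906% and 3.67%.

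All 12 genes listed for atrial identity had a negative difference, with a median of -0.769 and a range of -1.78 to -0.514, and none was called. The 3 homozygous values lay below the 3 heterozygous ones for 5 of the 12 (all genes 1.76%), and 8 were lower in all 3 pairs (all genes 18.3%). Myl7, the atrial myosin light chain gene (chr11:5896637-5898782, minus strand), was 734, 359.5 and 364 CPM in the homozygous and 2091, 946 and 748 CPM in the heterozygous libraries. Within each replicate number the homozygous value was the lower, and heterozygous replicate 1 stood far above the rest. The log2 difference was -1.31 ± 0.51 (SE, 95% interval -2.45 to -0.18, and -1.77 to -0.86 with the replicate block). The no-Cre libraries were at 629, 453 and 183 CPM, all below the 3 heterozygous ones.

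Sln, which encodes sarcolipin, an inhibitor of the sarcoplasmic calcium pump, was 85.5, 74.6 and 105 CPM in the homozygous and 377, 143 and 124 CPM in the heterozygous libraries. Stard10, a phospholipid transfer protein gene, was 58.5, 43.7 and 46.2 CPM against 167, 84.8 and 62.3 CPM. Bmp10, a growth factor gene of the heart, did not keep the order: it was 9.42, 21.2 and 106 CPM against 205, 83 and 56.1 CPM, so that homozygous replicate 3 exceeded 2 heterozygous libraries. Nppa, the atrial natriuretic peptide gene, was 4347, 1709 and 4811 CPM against 7446, 3373 and 7678 CPM, lower in each pair with overlapping groups, at a log2 difference of -0.81 ± 0.55 (SE, 95% interval -2.04 to 0.42, and -1.39 to -0.24 with the replicate block).

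The remaining members were lower on average as well, and their spread was large. Myl4, the atrial essential light chain gene, averaged 545 and 811 CPM, Fgf12 15 and 25.6 CPM, and Gja5, the connexin 40 gene, 42.2 and 67.9 CPM. The nuclear receptor genes Nr2f1 and Nr2f2 averaged 7 and 11.3 CPM and 12.9 and 23.6 CPM. Dkk3 averaged 121 and 161 CPM and Kcnj3, a potassium channel gene, 5.99 and 8.56 CPM. Per library, the median of the 12 genes relative to the mean of the 6 Cre libraries was -0.22, -0.73 and -0.253 in the homozygous, 0.814, 0.317 and -0.00242 in the heterozygous and 0.299, -0.835 and -1.07 in the no-Cre libraries. The no-Cre libraries thus spanned a wider range than the distance between the Cre genotypes. The median stayed negative in every setting tried, with 12 of 12 negative in each. Several settings, such as the block and each no-Cre library left out, cannot change a difference. The median lay between -0.979 and -0.558 when a single Cre library was left out. The list was chosen with earlier results of these data known.

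Markers of the outer heart layer were highest in heterozygous replicate 1. Of the 10 epicardial and mesothelial genes, 10 had a negative difference and none was called, with a median of -0.233. Their summed level was 192, 220 and 398.5 CPM in the homozygous and 586, 311 and 156 CPM in the heterozygous libraries. Krt19, a keratin gene, was 12.1, 13.8 and 31.2 CPM against 56.1, 19.5 and 11.8 CPM. Msln, which encodes mesothelin, was 56.4, 60.6 and 129.5 CPM against 201, 84.8 and 54.1 CPM. Without heterozygous replicate 1, all 10 differences were positive and the median was 0.202. Tbx18, Krt8, Krt19 and Msln then had differences of 0.12, 0.20, 0.18 and 0.17. The same library had the highest Myl7, Sln, Stard10 and Bmp10 values, and the part of cells from other regions of the heart in those values was not tested. Without it, 12 of 12 atrial genes were still negative, with a median of -0.558.

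Of the 39 mitosis genes, 37 had a positive difference and none was called, with a median of 0.374 (0.43 after TMM scaling). The 2 negative members were Foxm1, a transcription factor of the division programme, and Aspm, a spindle protein gene. The homozygous values all lay above the heterozygous ones for 1 gene (all genes 0.678%) and all below for 0 (all genes 1.76%). The 1 gene was Ttk, a spindle checkpoint kinase gene, at 4.51, 4.39 and 4.73 CPM against 2.29, 4.03 and 3.4 CPM. Over the pairs, 19 of 39 were higher in all 3 (all genes 6.11%) and 0 were lower in all 3 (all genes 18.3%).

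Top2a, the topoisomerase of dividing cells, was 44.4, 58.1 and 67.2 CPM in the homozygous and 23.8, 53.4 and 37.5 CPM in the heterozygous libraries. It was higher in each pair while the groups overlapped, with a log2 difference of 0.61 ± 0.41 (SE, 95% interval -0.31 to 1.53, and 0.10 to 1.11 with the replicate block). Kif20a, a kinesin gene of cell division, was 14, 22.2 and 42.3 CPM against 8.67, 18.7 and 15.8 CPM. Nusap1, a spindle protein gene, was 17, 19.1 and 25.5 CPM against 4.57, 16.7 and 19.1 CPM, and Spc25, a kinetochore gene, 11.3, 15 and 12.8 CPM against 5.77, 12.2 and 9.47 CPM. In each of these 4 genes heterozygous replicate 1 was the lowest of the 6 Cre libraries.

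The mitosis list depended on that library. Its median by library, relative to the mean of the 6 Cre libraries, was -0.0618, 0.0956 and 0.617 in the homozygous, -0.81, -0.0453 and 0.355 in the heterozygous and -1.49, -0.281 and -0.353 in the no-Cre libraries. Without heterozygous replicate 1 the median difference was 0.102, with 26 positive and 13 negative. Without heterozygous replicate 3 it was 0.618, with 38 positive and 1 negative. The DNA replication list was less one-sided: of 35 genes tested, 24 were positive and 11 negative with a median of 0.114 and none called. Its sign depended on single libraries: the median was -0.0954 (13 positive, 22 negative) without homozygous replicate 1, -0.115 (12 and 23) without heterozygous replicate 3 and 0.373 (29 and 6) without heterozygous replicate 2. Its members with the smallest p went both ways, Fen1 (flap endonuclease) with means of 7.74 and 11.5 CPM and Ccne1 (cyclin E1), Chaf1a (chromatin assembly) and Rrm2 (nucleotide reduction) with 5.18 and 3.57, 6.58 and 4.58, and 29.2 and 22.8 CPM. Of 24 cell cycle inhibitor and p53 target genes, 10 were positive and 14 negative with a median of -0.0735. This median was 0.123 (18 positive, 6 negative) without homozygous replicate 2, 0.0758 (16 and 8) without heterozygous replicate 3 and -0.247 (5 and 19) without homozygous replicate 3. Among these genes Cdkn2d, a cyclin-dependent kinase inhibitor gene, averaged 15.8 and 28.5 CPM.

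**Figure D5:**
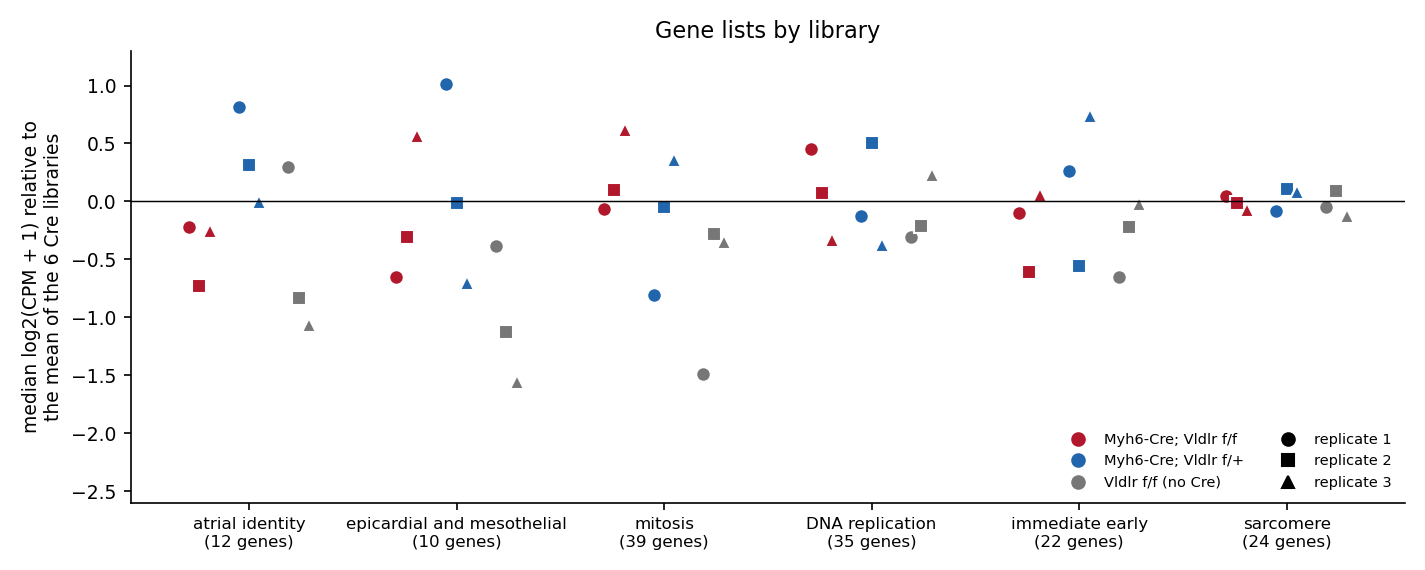
Median log2(CPM + 1) of each list's tested genes in each library, relative to the mean of the 6 Cre libraries, with points shaped by replicate number and coloured by genotype. Atrial genes are highest (0.814) and mitosis genes lowest (-0.81) among the Cre libraries in heterozygous replicate 1, and the no-Cre libraries reach -1.07 and -1.49.

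Immediate early genes, which respond within minutes to stimulation or stress of cells, were lower on average. Of 22 tested, 21 had a negative difference, the exception being Ier3, and none was called, with a median of -0.331. Its leading members were Fosb, at 1.39, 1.23 and 0.616 CPM against 13.4, 1.27 and 2.60 CPM, and Dusp1, a phosphatase gene, at 45.4, 37.5 and 69.3 CPM against 72.2, 53.7 and 97.9 CPM. Klf2, a transcription factor gene, was 106, 56.6 and 89.8 CPM against 164, 67.7 and 173 CPM. Dusp1 and Klf2 were lower in each pair, by log2 differences of -0.55 ± 0.30 (SE, 95% interval -1.22 to 0.12, and -0.94 to -0.165 with the replicate block) and -0.61 ± 0.38 (SE, 95% interval -1.44 to 0.23, and -1.06 to -0.15 with the replicate block). Fos was 13.5, 3.73 and 15.1 CPM against 75.6, 6.77 and 25.9 CPM. The median was -0.088 (9 positive, 13 negative) without heterozygous replicate 3 and -0.741 (1 and 21) without heterozygous replicate 2. The one-sided count thus depended on heterozygous replicate 3.

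Genes of the contractile apparatus were evenly divided, with 10 positive and 14 negative of 24, a median of -0.0505 and none called. After TMM scaling the counts were 14 positive and 10 negative, and the median lay between -0.135 and 0.0107 when a Cre library was left out. Ttn, which encodes the giant elastic protein titin, was 2776, 1064 and 1351 CPM against 3150, 1850 and 2770 CPM, lower in each pair at a log2 difference of -0.67 ± 0.39 (SE, 95% interval -1.53 to 0.19, and -1.26 to -0.08 with the replicate block). Acta1, the skeletal actin gene that is also a fetal gene of the heart, was 30.7, 35.9 and 178 CPM against 17.4, 33.4 and 50.1 CPM. Its high mean in the homozygous group came from replicate 3. Of 13 stress and fetal cardiac genes 10 were positive, with a median of 0.203, which was -0.29 without homozygous replicate 3 and -0.03 without heterozygous replicate 1. Xirp1, an actin-binding protein gene, averaged 264 and 196 CPM, and Cryab, a small heat shock protein gene, 227 and 332 CPM.

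Of 24 genes for calcium handling and ion channels, 15 were positive and 9 negative, with a median of 0.0607 and none called. The median was -0.0263 (10 positive, 14 negative) without heterozygous replicate 1, -0.00575 (11 and 13) without homozygous replicate 3 and 0.16 (14 and 10) without homozygous replicate 1. Kcnd3, the gene of the potassium channel Kv4.3, was 3.14, 3.06 and 2.55 CPM against 9.70, 3.70 and 14 CPM. The groups did not overlap and the no-Cre libraries, at 0.793, 4.47 and 2.93 CPM, were low, with a log2 difference of -1.22 ± 0.48 (SE, 95% interval -2.28 to -0.15). Casq2, the calcium store protein calsequestrin, averaged 586 and 431 CPM, and Gja1, the main gap junction protein of ventricular muscle, 506 and 393 CPM.

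Of 21 cardiac transcription factor genes, 8 were positive and 13 negative, with a median of -0.079, which was 0.0699 (15 positive, 6 negative) without homozygous replicate 2 and -0.191 (4 and 17) without homozygous replicate 3. Tead1, the DNA-binding partner of the coactivator YAP, was 2.32, 21.1 and 7.93 CPM in the homozygous and 155, 20 and 87.9 CPM in the heterozygous libraries, with 19.4, 16.5 and 14.1 CPM without Cre. Heterozygous replicates 1 and 3 were far above the other 7 mouse libraries, while heterozygous replicate 2 was level with them, so that the groups overlapped. The log2 difference was -2.93 ± 0.76 (SE, 95% interval -4.62 to -1.25). Tbx5, which sets cardiac identity, was 45.9, 32.4 and 43.7 CPM against 116, 43 and 89.6 CPM, with heterozygous replicates 1 and 3 again above the rest, at a log2 difference of -0.91 ± 0.39 (SE, 95% interval -1.77 to -0.05). Prox1 averaged 61.7 and 75 CPM and Irx4, a ventricular factor, 116 and 96.6 CPM.

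Of 30 fatty acid oxidation genes 14 were positive and 16 negative, with a median of -0.00722, and 18 and 12 after TMM scaling. The median was 0.223 (23 positive, 7 negative) without heterozygous replicate 2, 0.112 (23 and 7) without homozygous replicate 3 and -0.132 (9 and 21) without heterozygous replicate 3. Cpt1b, which controls entry of fatty acids into mitochondria, was 450, 516 and 457 CPM against 513, 529 and 569 CPM, a log2 difference of -0.18 ± 0.20 (SE, 95% interval -0.61 to 0.25). Etfb averaged 245 and 282 CPM and Acot2 130 and 151 CPM.

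Fibroblast genes had mostly negative differences, while the matrix list was near the split over all tested genes. Of 10 fibroblast genes 9 had a negative difference, with a median of -0.244 and none called. Without heterozygous replicate 1, the library with the highest summed fibroblast markers, the median was -0.0912, with 9 of 10 still negative. Col1a1, the collagen I gene, was 811, 522 and 635 CPM against 1237, 766 and 686 CPM, and Tcf21 averaged 35.2 and 44.2 CPM. Of 46 TGF-beta and matrix genes, 16 were positive and 30 negative, with a median of -0.0949 (21 and 25 after TMM scaling). Over all tested genes 60.1% were negative, with a median of -0.0568. Ltbp2, which encodes a matrix protein of elastic fibres, was 6.00, 6.10 and 5.59 CPM against 16.3, 6.13 and 16.1 CPM, with 9.63, 16.9 and 17 CPM without Cre. Smad7, an inhibitor of TGF-beta signalling, averaged 19.7 and 28.4 CPM, Thbs2 77.9 and 105 CPM, and Loxl1, a collagen crosslinking enzyme gene, 93.1 and 124.5 CPM. Summed fibroblast markers were 4044, 3849 and 3619 CPM against 5848, 4558 and 3607 CPM, and their part in the matrix genes was not tested.

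Abcc9, the sulphonylurea receptor gene of muscle and pericytes, was 94.3, 169.5 and 141 CPM against 213, 179 and 231 CPM. It was below the heterozygous libraries without overlap, and the no-Cre libraries were higher still at 248, 249 and 379.5 CPM, with a log2 difference of -0.65 ± 0.27 (SE, 95% interval -1.24 to -0.06). It is 1 of 10 smooth muscle and pericyte genes tested, of which 8 had a negative difference, with a median of -0.115 that lay between -0.265 and -0.0804 when a Cre library was left out.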

How the data were processed

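RNA-seq was made from total RNA, per the labels. The mouse table holds CPM values made by the authors and deposited per gene name. Each column sums to 1000000, so the values carry no correction for library composition. TMM factors, which estimate that correction, ran from 0.87 in homozygous replicate 2 to 1.08 in no-Cre replicate 3. Tools named in the submitters' processing notes are edgeR 3.20.9, HISAT2 2.1.0 and StringTie 1.3.4, with no roles. The sources used here give neither the annotation nor the use of strand. Each column name matched 1 sample, and 4 rows with repeated names were left out. All mouse values were whole multiples of a step (100% within 0.05 steps). Steps sum to 66088372 to 78370879 per Cre library, but a step may be part of a fragment, so fragment numbers are unknown and counting intervals cannot be given.

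limma 3.58.1 (R 4.3.3) was fitted with an intensity trend on log2(CPM + 1) of the 9 mouse libraries, with 1 mean per group. Genes needed at least 1 CPM in at least 3 of the 6 Cre libraries. P-values were adjusted by Benjamini-Hochberg and genes called at 0.05. The log2 difference understates the change of low genes. edgeR 4.0.16 (quasi-likelihood) and DESeq2 1.42.0 were run on the recovered whole units as alternatives. The fit was tested on simulated data. Other alternatives were scaling, pseudocount, filter, samples in the fit, each library left out, and the replicate number as a block.

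Pairing was checked from deviations from group means. Correlations between same-numbered Cre libraries were 0.46, 0.46 and 0.34, and between differently numbered homozygous and heterozygous libraries at most 0.084. This comes from the data, not from the labels. It did not extend to the no-Cre libraries (-0.40 between both replicates 1 of the floxed homozygotes with and without Cre). Similar correlations occurred across numbers, 0.45 and 0.42 for no-Cre replicate 2 with homozygous and heterozygous replicate 1. The numbers are therefore not shown to mark pairs. The block on the 6 Cre libraries alone was added after the correlations of the Cre libraries were seen.

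Named genes were Vldlr, Reln, Thbs1, Lrp8, Dab1 and Myh6, then up to 10 per direction with the smallest p, a group mean of 5 CPM or more, groups that do not overlap and no predicted name, and the 4 members with the smallest p of each list described, of which the text gives some. Other names were added after their values were seen. The comparison, the lists and the rule were chosen with earlier results of these data known. Coordinates and exon overlaps are from GENCODE on GRCm38, matched by symbol. A few genes are not reported here.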

Additional observations from a re-analysis of the deposited data

How the results depend on the processing

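Of the settings tried, only DESeq2 called genes, 2 higher and 2 lower, among them Angptl7 (log2 difference -1.24, adjusted p = 0.0332). The number of genes at an unadjusted limma p under 0.05, 131 as reported, was 531 with the replicate block on the 6 Cre libraries, 159 with the block on all 9 mouse libraries, 113 on the 6 Cre libraries without a block, 594 without a filter on low values (of 28279 genes) and 76 to 608 when a single library was left out (76 without heterozygous replicate 1, 608 without heterozygous replicate 2, 406 without homozygous replicate 1, 208 without homozygous replicate 3 and 198 without heterozygous replicate 3). No gene was called in any of these, with or without the block, so the block changed no call. Vldlr was lower in each setting, with a log2 difference of -0.457 to -0.331. Of 2172 values for 99 genes under the alternatives, 11 turned sign, each when a single library was left out. This count does not measure how stable the directions were. The block, the fit on the 6 Cre libraries and each no-Cre library left out cannot change a difference. Many of the 99 genes were also chosen for a small p. The ranges over the libraries left out were -0.588 to 0.602 for Thbs1, -0.895 to 0.183 for Krt19, -0.768 to 0.17 for Msln, -0.403 to 0.115 for Tbx18, -0.635 to 0.201 for Krt8, -0.637 to 1.82 for Nppb, -0.0635 to 0.423 for Apoe and -0.372 to 0.147 for Aspm. The cause was not tested. The median of the TGF-beta and matrix list was -0.013 with DESeq2, and the medians of 30 of 40 lists changed sign when a Cre library was left out. The median over all tested genes then moved too, between -0.093 and 0.0129. The median interval half-width was 0.655 on the log2 scale, or 0.532 with the block, and a gene that was not called is not shown to be unchanged.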

Other observations

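None of the lists not described above held a called gene. Of 36 cytosolic ribosomal protein genes 12 were positive and 24 negative (median -0.0549), of 38 nuclear respiratory chain genes 14 and 24 (-0.0343), and of 13 mitochondrially encoded genes 11 and 2 (0.0755). Of 24 glycolysis genes 19 were positive (0.0774), of 22 sterol synthesis genes 15 (0.102) and of 17 tricarboxylic acid cycle genes 13 (0.112). Of 32 interferon response genes 13 were positive and 19 negative (-0.0471), and 17 and 15 after TMM scaling. Of 13 inflammation and NF-kappaB genes 10 were negative (-0.253), and of 18 neuregulin and IGF signalling genes 11 (-0.265). Of 18 circadian clock genes 12 were negative (-0.126), of 15 hypoxia genes 8 (-0.0811), and of 16 Hippo pathway genes 9 (-0.0926). Of these lists, inflammation and NF-kappaB (-0.405 to -0.0426) and neuregulin and IGF signalling (-0.362 to -0.0125) kept a negative median whichever Cre library was left out, and the medians of the others changed sign. The -0.0426 had 6 positive and 7 negative genes, without homozygous replicate 2, beside 0.0129 over all tested genes. The -0.0125 had 8 and 10, without homozygous replicate 1, and was above the -0.0848 over all tested genes.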
